A study of Homo sapiens with 6 samples.

Results

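The genes that encode the proteins of the cytosolic ribosome were examined in HEK293 cells, an established human line of embryonic kidney origin, after inhibition of a lipid kinase. Genes were taken by symbol: RPL or RPS followed by a number, RPSA, and the stalk genes RPLP0, RPLP1 and RPLP2, without kinases, pseudogenes and the Y-linked copies of RPS4X. The symbols of 83 genes matched. Of these, 31 encode small-subunit proteins, 46 encode large-subunit proteins, and 6 are paralogs whose symbols end in L or L1. At least 10 counts in 3 or more libraries were found for 81 of the 83, out of 63140 genes listed and 16754 tested. RPL10L had no count in any library and RPL3L had 2 to 6, and neither was tested.

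The study compared 2 groups of 3 RNA sequencing libraries. One group was exposed to GSK-A1 at 100 nM during 24 h, the other to the solvent dimethyl sulfoxide (DMSO). The compound GSK-A1 inhibits phosphatidylinositol 4-kinase IIIalpha, the lipid kinase encoded by PI4KA. Cells were confluent when treated, and both groups were unmodified HEK293 cells labelled as 3 biological replicates, with nothing said on whether these were separate cultures. P-values therefore measure the spread between these samples, which may be technical. Libraries held 33040178 to 47777233 counts, and all 6 carried the same lane label.

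The cytosolic ribosome joins a small subunit, which reads the mRNA, to a large subunit, which makes the peptide bond. Most of its proteins are present once in the finished particle, and most are encoded by a single active gene among many processed pseudogenes. Ribosomal protein mRNAs are among the most abundant in dividing cells. They typically begin with a 5′ terminal oligopyrimidine (TOP) tract, a C followed by a run of pyrimidines, through which mTOR and LARP1 control their translation.

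The first bases of several of these mRNAs are shown because the TOP tract is the sequence feature the genes share and the selection by symbol did not use it. Each line gives 10 bases before and 20 bases from the start listed by RefSeq on GRCh38.p14, 5′ to 3′ on the gene's strand. Capitals mark an unbroken pyrimidine tract that begins with C at that start and holds at least 4 more pyrimidines. For a gene with several listed starts, the start with the longest tract was taken, here and in the counts below. The first 6 genes fell with GSK-A1, RPL22L1 and RPL39 rose, and RPS4X and RPL26L1 are examples with no tract at the listed start.
RPL13A, chr19:49487598-49487627, plus strand: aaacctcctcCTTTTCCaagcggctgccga
RPS19, chr19:41860245-41860274, plus strand: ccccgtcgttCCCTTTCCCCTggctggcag
RPS18, chr6:33272065-33272094, plus strand: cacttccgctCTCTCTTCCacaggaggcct
RPL22, chr1:6199576-6199605, minus strand: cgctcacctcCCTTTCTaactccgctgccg
RPS14, chr5:150449720-150449749, minus strand: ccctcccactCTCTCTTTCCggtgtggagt
RPL27A, chr11:8682782-8682811, plus strand: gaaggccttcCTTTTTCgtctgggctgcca
RPL22L1, chr3:170870176-170870205, minus strand: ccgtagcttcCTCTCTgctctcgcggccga
RPL39, chrX:119791611-119791640, minus strand: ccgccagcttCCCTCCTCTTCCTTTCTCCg
RPS4X, chrX:72277229-72277258, minus strand: ctccagccccaatttctacgcgcaccggaa
RPL26L1, chr5:172958719-172958748, plus strand: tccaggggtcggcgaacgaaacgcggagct

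Of the 81 genes, 65 were in the RefSeq promoter table and 47 of these (72.3%) had such a tract, of 5 to 19 bases with a median of 8. It was present in 1404 of 27305 genes in the whole table (5.14%). The small subunit had it in 18 of 24 genes and the large subunit in 28 of 38. Of the 3 paralogs in the table, RPL22L1 had a tract and RPL26L1 and RPL7L1 had none. The search read only the listed strand and the listed starts. Because the start with the longest tract stood for each gene, these shares are upper values for genes with several starts.

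Expression is given as CPM, counts scaled to a common library size with each library's normalization factor. With DMSO, the highest member by CPM was RPS4X at 5148 CPM. Of the 77 genes that are not paralogs, 73 lay between 220 CPM (RPL22) and that level. The other 4 were lower, among them RPS10 at 5.44, RPL36A at 12.1 and RPL17 at 46.8 CPM. Those values are uncertain: of the 50-base stretches in the transcripts of RPS10, RPL36A and RPL17, 94.1%, 80.3% and 90.3% also occurred in another annotated gene, so reads may not have been assigned to them. Per kilobase of transcript, RPS18 led with 4060 CPM, followed by RPS19 with 3764 and RPL7A with 3599. The paralogs were low, with means of 4.35 CPM for RPL39L, 11.3 for RPL22L1 and 35.9 for RPL26L1, except RPL7L1 at 470 CPM.

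The 81 genes together took a smaller share of the counts with GSK-A1. The share was 9.82%, 10.05% and 9.80% in DMSO replicates 1 to 3 and 9.59%, 9.40% and 9.49% in GSK-A1 replicates 1 to 3. All GSK-A1 libraries lay below all DMSO libraries. The means were 9.89% ± 0.136 and 9.49% ± 0.0945 (SD, n = 3), a difference of -0.399 percentage points or -4.03% of the DMSO share. The exact two-sided permutation p was 0.1, the smallest that 3 against 3 libraries allow. The difference was -0.352 points without GSK-A1 replicate 2, the library lowest in this share. In bulk RNA, a change in the share of cells and a change of RNA per cell cannot be told apart.

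Genes were tested with edgeR and called at an adjusted p under 0.05 over all 16754 genes. Of the 81 ribosomal protein genes, 15 fell and 3 rose. Those that fell included RPL10A, RPL11, RPL13A, RPL22, RPL26L1, RPL27A, RPS2, RPS14, RPS16, RPS18, RPS19, RPS28 and RPSA. Those that rose were RPL17, RPL22L1 and RPL39. The share called was 22.2%, close to the 22.9% of all genes tested. Lower calls made up 18.5% of the members against 10.9% of all genes, and higher calls 3.70% against 12.0%. The log2 fold change was below 0 for 67 of the 81, with a median of -0.04 (quartiles -0.09 and -0.02), while the median of all genes was -0.01. The members' median was -0.04 with RLE factors, -0.05 with library totals alone and -0.08 with upper-quartile factors. Upper-quartile factors gave 33 lower and 2 higher members, and also moved the share of higher calls among all genes from 52.3% to 33.3% and the median of all genes to -0.05. Groups did not overlap for 33 members that were lower with GSK-A1 (40.7%; 20.4% of all genes) and for 4 that were higher (20.2% of all genes).

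The changes were small. As percentages from the edgeR log2 fold change, they were under 5% for 49 members, 5 to 10% for 29 and more than 10% for 3. The replicates of a group differed little for these abundant genes, with a median coefficient of variation of 1.99% for DMSO and 3.12% for GSK-A1. Changes of individual members spanned -0.16 (RPL22) to 0.25 (RPL22L1) on the log2 scale.

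**Figure D1:**
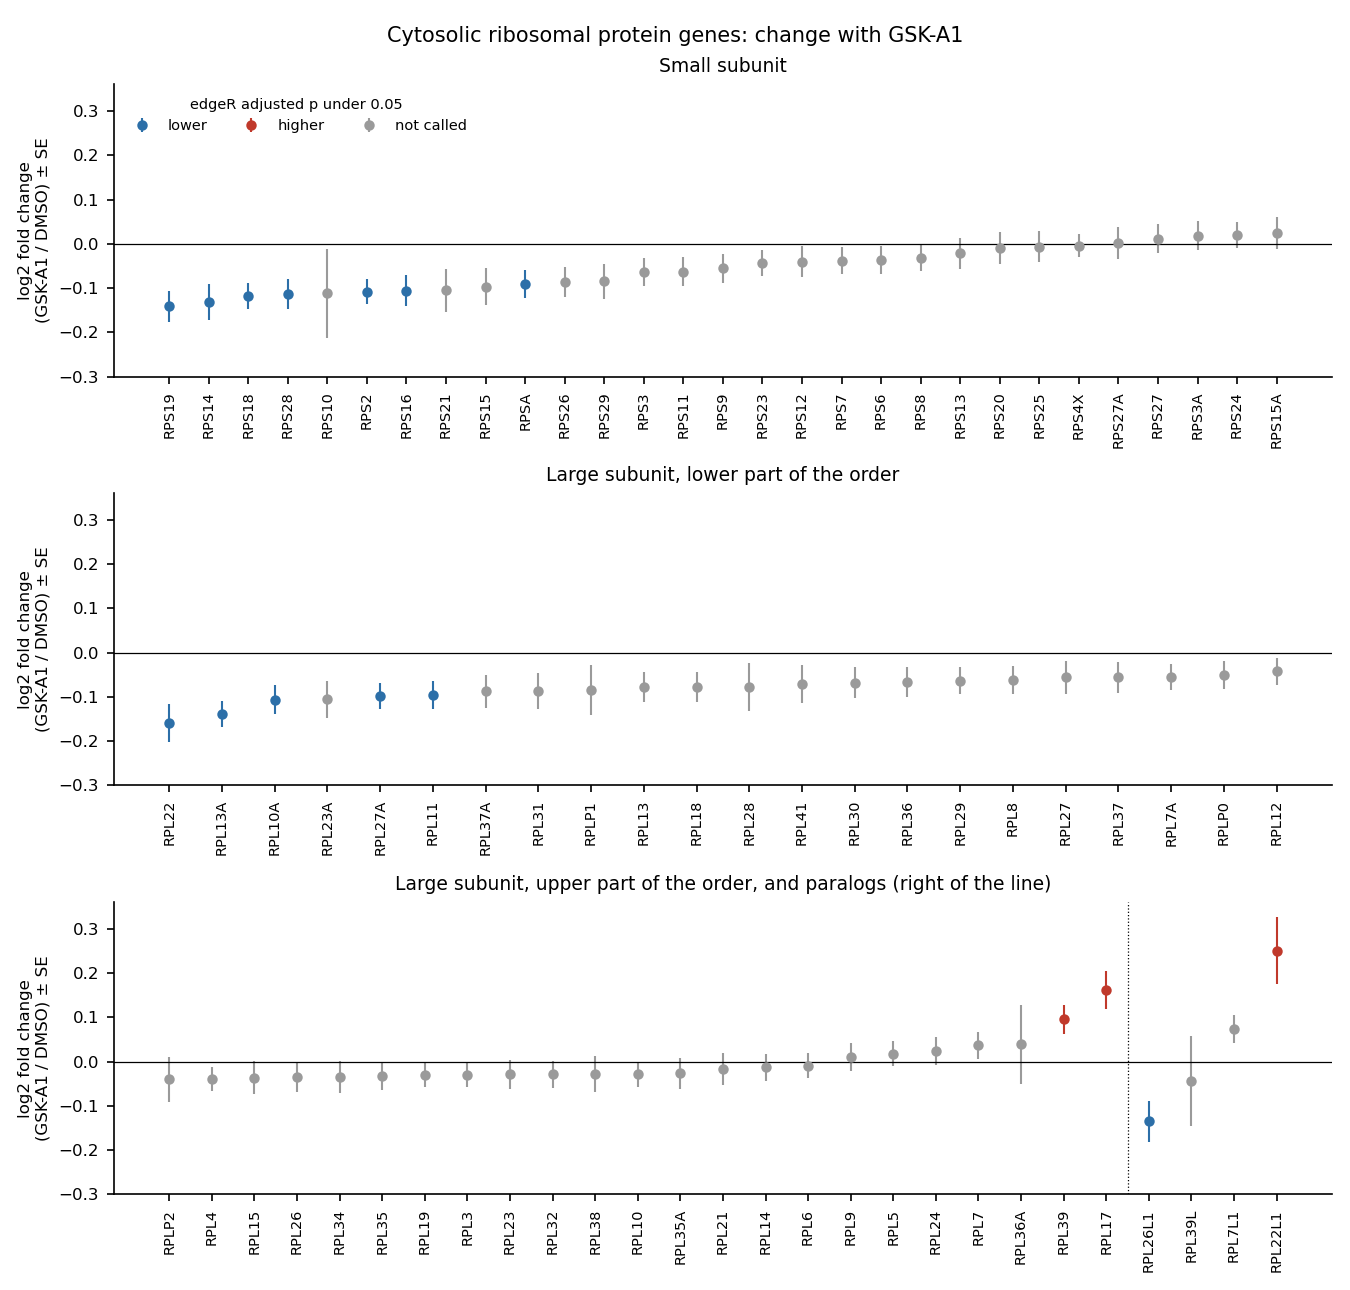
Log2 fold change of GSK-A1 over DMSO (y axis, ± SE) for 78 ribosomal protein genes in the order of the change, small subunit in the upper panel and large subunit and paralogs in the others. Blue points are 13 genes called lower and red points the 3 called higher by edgeR; 64 of the points lie below 0.

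Among the 31 small-subunit genes, 8 fell and none rose (25.8% called; 10.9% of all genes fell), with a median log2 fold change of -0.06. At an unadjusted p under 0.05 edgeR gave 12 of the 31 small-subunit genes and 6000 of the 16754 genes tested. The highest log2 fold change of a small-subunit gene was 0.02 for RPS15A, which was not called. DESeq2 and limma-voom also called no small-subunit gene higher: the higher calls under both were RPL17, RPL22L1 and RPL39.

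RPS19 (ENSG00000105372), a small-subunit protein whose loss of function is a cause of Diamond-Blackfan anaemia, had 1951, 2065 and 1924 CPM in DMSO replicates 1 to 3, against 1861, 1723 and 1803 CPM in the GSK-A1 libraries in the same order. All GSK-A1 values were below all DMSO values. The fall was -0.14 ± 0.04 on the log2 scale (SE; edgeR adjusted p = 0.00907). Only 1.68% of its 50-base stretches occurred in another gene. The change was -0.08 and no longer called with the GC trend removed, and -0.05 with GC and length trends removed together (edgeR adjusted p from 0.00192 to 0.195 over the alternatives).

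RPS18 (ENSG00000231500), a protein of the head of the small subunit, stood at 2505, 2531 and 2431 CPM with DMSO and at 2349, 2234 and 2297 CPM with GSK-A1, with no overlap. It fell by 0.12 ± 0.03 on the log2 scale (SE; edgeR adjusted p = 0.0101). RPS2 (ENSG00000140988), which lies near the entry of the mRNA channel, was at 2773, 2814 and 2758 CPM with DMSO and at 2620, 2503 and 2620 CPM with GSK-A1. GSK-A1 replicate 2 was again the lowest library, and the groups did not overlap. Its log2 fold change was -0.11 ± 0.03 (edgeR adjusted p = 0.0138), but 69.4% of its stretches were shared with other genes. With the GC trend removed RPS2 was at -0.04 and not called (edgeR adjusted p from 0.00227 to 0.419 over the alternatives).

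RPS28 (ENSG00000233927), near the exit of the mRNA channel, fell from 528, 554 and 535 CPM to 508, 487 and 498 CPM (-0.11 ± 0.03, edgeR adjusted p = 0.0222). RPS14 (ENSG00000164587), a platform protein whose gene is lost in the 5q- syndrome, fell from 1341, 1404 and 1289 CPM to 1287, 1153 and 1241 CPM (-0.13 ± 0.04, edgeR adjusted p = 0.0308). For RPS14, the highest GSK-A1 library lay just under the lowest DMSO library. RPS28 had a wider gap between the groups. For RPS28, 21.4% of the exon bases overlap exons on the opposite strand, and with the strand setting not given its counts are uncertain. RPS16 (edgeR adjusted p = 0.0429) and RPSA (edgeR adjusted p = 0.0496) were the small-subunit calls nearest to the threshold.

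Among the 46 large-subunit genes, 6 fell and 2 rose (17.4% called, 13.0% lower; 22.9% of all genes were called and 10.9% lower). Their median log2 fold change was -0.04. RPL13A (ENSG00000142541), whose protein is also known as a translational repressor when released from the ribosome, had the smallest p of all members. The DMSO libraries had 3458, 3491 and 3427 CPM, and the GSK-A1 libraries 3218, 3022 and 3188 CPM. The gap between the groups exceeded the spread within either group. RPL13A fell by 9.14%, or -0.14 ± 0.03 on the log2 scale (SE; edgeR adjusted p = 0.00367). It was called under each of the 18 alternative settings, with log2 fold changes of -0.18 to -0.10. Of its stretches, 40.4% were shared with other genes.

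RPL22 (ENSG00000116251), an RNA-binding large-subunit protein that cells can do without, was at 216, 225 and 219 CPM with DMSO and at 193, 211 and 187 CPM with GSK-A1. GSK-A1 replicate 2 was the highest of its group, unlike for RPL13A and RPS19, and still lay below every DMSO library. The log2 fold change was -0.16 ± 0.04 (edgeR adjusted p = 0.0137), the largest fall among the members. RPL27A (ENSG00000166441) was at 921, 940 and 911 CPM with DMSO and at 863, 870 and 859 CPM with GSK-A1 (-0.10 ± 0.03, edgeR adjusted p = 0.0273). The RPL27A values of each group lay close together and did not overlap with the other group. RPL10A (-0.11, edgeR adjusted p = 0.0310) and RPL11 (-0.09, edgeR adjusted p = 0.0411) also fell. RPL11 and its partner RPL5 bind MDM2 when ribosome assembly is disturbed. RPL5 had a log2 fold change of 0.02 and was not called (edgeR adjusted p = 0.699).

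**Figure D2:**
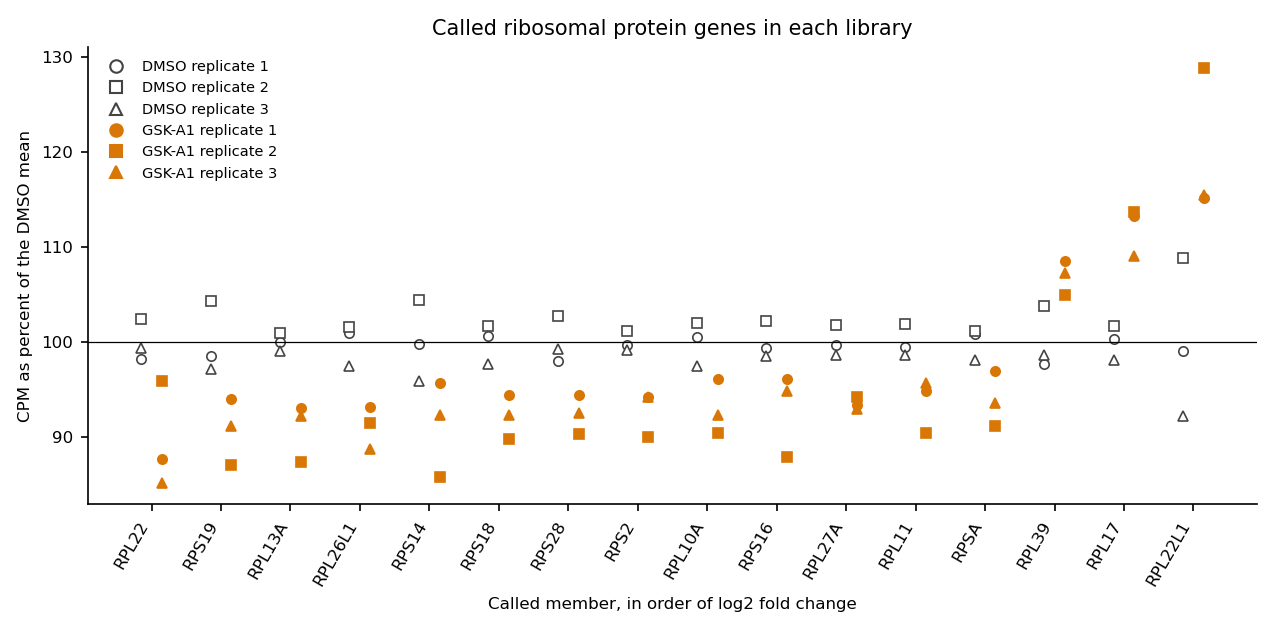
CPM of 16 called genes in each library (symbols by replicate; open, DMSO; filled, GSK-A1) as a percentage of the DMSO mean of that gene (y axis). The groups do not overlap for any of them, and GSK-A1 replicate 2 is the lowest library for 10 of the 13 genes that fell.

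Both core members that rose contribute to the peptide exit tunnel of the large subunit. RPL39 (ENSG00000198918) stood at 733, 779 and 741 CPM with DMSO and at 815, 788 and 806 CPM with GSK-A1. The lowest GSK-A1 library was close above the highest DMSO library. The rise was 0.10 ± 0.03 on the log2 scale (SE; edgeR adjusted p = 0.0467), the call nearest to the threshold among those that rose. RPL39 lost its call under 9 of the 18 alternative settings (edgeR adjusted p from 0.000907 to 0.252). RPL17 (ENSG00000265681) was at 46.9, 47.5 and 45.9 CPM with DMSO and at 53.0, 53.2 and 51.0 CPM with GSK-A1, with no overlap (0.16 ± 0.04, edgeR adjusted p = 0.0121). Since 90.3% of its stretches lie in an overlapping gene, some of its reads may not have been assigned to it. The readthrough gene RPL17-C18orf32 itself had 1 to 11 counts per library. RPL4, another exit-tunnel protein, was not called.

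Of the 4 paralogs tested, RPL22L1 rose and RPL26L1 fell. RPL22L1 (ENSG00000163584), which can take the place of RPL22 in the ribosome, was at 11.2, 12.3 and 10.4 CPM with DMSO and at 13.0, 14.6 and 13.0 CPM with GSK-A1. It rose by 0.25 ± 0.07 on the log2 scale (SE; edgeR adjusted p = 0.0236) while RPL22 fell. RPL22L1 counts were 5.17%, 5.45% and 4.76% of RPL22 counts in the DMSO libraries and 6.74%, 6.90% and 6.96% in the GSK-A1 libraries. The groups were well separated, with means of 5.13% ± 0.347 and 6.87% ± 0.114 (SD, n = 3), a relative change of 33.9% (exact two-sided permutation p = 0.1, the smallest possible). RPL22L1 shared 0.701% of its stretches with other genes and RPL22 16.1%.

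RPL26L1 (ENSG00000037241), a close copy of RPL26, was at 36.2, 36.5 and 35.0 CPM with DMSO and at 33.4, 32.8 and 31.8 CPM with GSK-A1. Every GSK-A1 value was below every DMSO value. The log2 fold change was -0.13 ± 0.05 (edgeR adjusted p = 0.0479), while RPL26 was not called (-0.03, edgeR adjusted p = 0.493). RPL26L1 lost its call under 11 of the 18 alternative settings (edgeR adjusted p from 0.0117 to 0.196). Its counts were 9.49% ± 0.173 of those of RPL26 with DMSO against 8.85% ± 0.113 with GSK-A1 (exact two-sided permutation p = 0.1, n = 3). The pair shares sequence, and 52.5% of the stretches of RPL26L1 occur elsewhere. RPL7L1 (ENSG00000146223) was at 468, 468 and 473 CPM with DMSO and at 493, 503 and 487 CPM with GSK-A1. Its groups did not overlap either, yet it was not called (0.07 ± 0.03, edgeR adjusted p = 0.103). RPL39L (4.48, 4.18 and 4.38 CPM with DMSO; 4.38, 3.75 and 4.47 CPM with GSK-A1) overlapped between groups and was not called (-0.04 ± 0.10, edgeR adjusted p = 0.796).

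**Figure D3:**
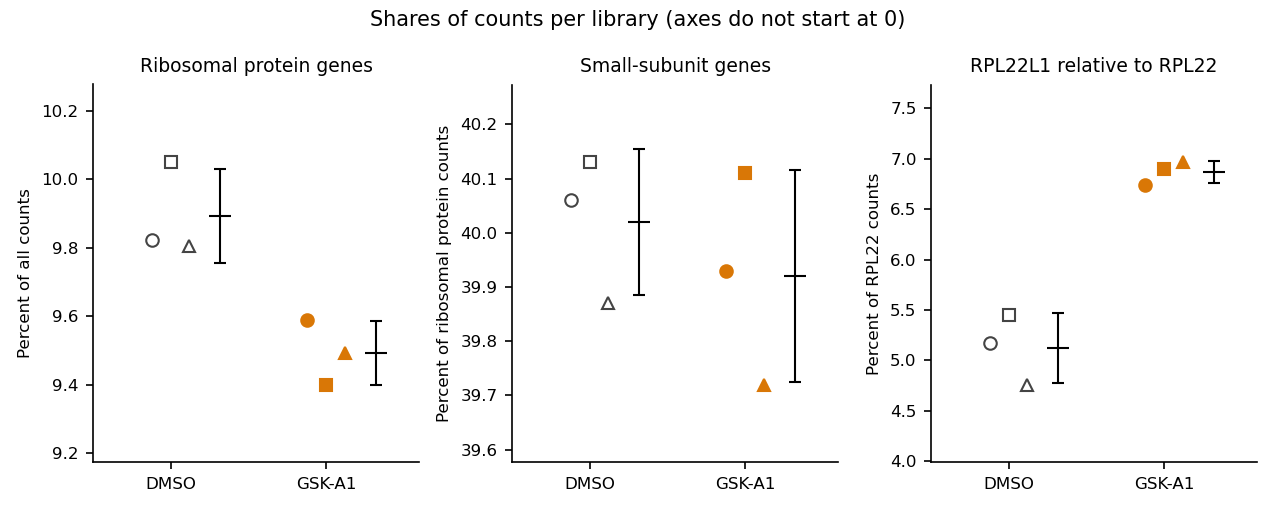
Share of all counts taken by the 81 ribosomal protein genes, share of their counts from small-subunit genes, and RPL22L1 counts as a percentage of RPL22 counts, in each of the 6 libraries; bars are the mean ± SD of 3 libraries, and the y axes do not start at 0. The groups do not overlap in the left and right panels and overlap in the middle panel.

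The balance between the subunits did not change detectably. Small-subunit genes gave 40.1%, 40.1% and 39.9% of the ribosomal protein counts with DMSO and 39.9%, 40.1% and 39.7% with GSK-A1. The values of the groups were intermingled (40.02% ± 0.134 and 39.92% ± 0.196; SD, n = 3; exact two-sided permutation p = 0.6). The sign of this difference turned, to 0.0041 percentage points, without GSK-A1 replicate 3.

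Of the 5 members highest in CPM, RPL13A fell, as given above, and the other 4 were not called. RPS4X (ENSG00000198034), the X-linked RPS4 gene, was at 5120, 5217 and 5107 CPM with DMSO and at 5166, 5166 and 5066 CPM with GSK-A1. These values overlapped fully, and the log2 fold change was -0.0043 ± 0.026 (edgeR adjusted p = 0.929). RPL4 had 3516, 3597 and 3579 CPM with DMSO and 3500, 3442 and 3465 CPM with GSK-A1, just short of overlap. RPL7A had 3132, 3206 and 3282 CPM with DMSO and 3138, 3035 and 3089 CPM with GSK-A1, and its groups overlapped. RPL4, RPL7A and RPLP0 had log2 fold changes of -0.04, -0.05 and -0.05 and were not called (edgeR adjusted p = 0.321, 0.184 and 0.262).

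The stalk proteins RPLP0, RPLP1 and RPLP2 recruit the elongation and release factors. None was called. RPLP0 was at 3161, 3230 and 3193 CPM with DMSO and at 3160, 2947 and 3148 CPM with GSK-A1, a gap of less than 1 CPM between the groups. RPLP1 (ENSG00000137818) was at 1266, 1318 and 1321 CPM with DMSO and at 1102, 1288 and 1296 CPM with GSK-A1. RPLP2 (ENSG00000177600) was at 773, 814 and 788 CPM with DMSO and at 718, 846 and 746 CPM with GSK-A1. Both genes, whose proteins bind as dimers, were lowest in GSK-A1 replicate 1, and RPLP2 alone of the pair was above all DMSO libraries in GSK-A1 replicate 2. RPLP2 was called lower without GSK-A1 replicate 2 (-0.11), and its sign turned to 0.016 without GSK-A1 replicate 1. The 3 stalk genes gave 5.36% ± 0.0587 of the ribosomal protein counts with DMSO against 5.34% ± 0.145 with GSK-A1 (exact two-sided permutation p = 0.9, n = 3).

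One GSK-A1 library moved with the result. GSK-A1 replicate 2 was the lowest of the 6 libraries for 45 of the 81 members. GSK-A1 replicates 1 and 3 were lowest for 7 and 14, and the DMSO libraries for 10, 1 and 4. That library also had the smallest share of counts from the mitochondrial genome, 4.04%, where the other 5 had 5.12 to 5.68%. Without it, 16 members fell and 3 rose, with 13 of the same 15 among those that fell. RPL13, RPL36 and RPLP2 were then called as well, and RPS16 and RPSA were not. The number of calls depended more on the DMSO libraries: 4 members were called in each fit that left out 1 of them. Those fits called 4 lower and 0 higher without replicate 1, 1 lower and 3 higher without replicate 2, and 4 lower and 0 higher without replicate 3. Without GSK-A1 replicate 1 there were 8 lower and 2 higher. Calls over all genes moved too, from 22.9% with all 6 libraries to 12.9%, 13.2% and 12.7% without DMSO replicates 1 to 3. Without GSK-A1 replicates 1 to 3 they were 15.9%, 28.1% and 21.9%.

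GC content moved with the change across members. Pearson's r between the log2 fold change and the GC content of the transcript was -0.438 (Spearman's rho -0.474) over the 81 genes, which share the same 6 libraries. It was -0.174 over 16094 tested genes with a known transcript. Median GC content was 53.9% for the members that fell, 49.0% for those not called and 43.9% for those that rose. RPL22, at 42.1% GC, went against this order. With the GC trend removed from each library, 11 members fell and 2 rose, and 9 of the 15 original falls were among the 11. That fit called 25.7% of all 16754 genes, 1946 lower and 2358 higher. RPS19 (-0.08), RPS2 (-0.04), RPS28 (-0.08) and RPS16 (-0.06) were then no longer called lower, nor was RPL39 called higher, while RPS6 and RPS26 were called lower.

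**Figure D4:**
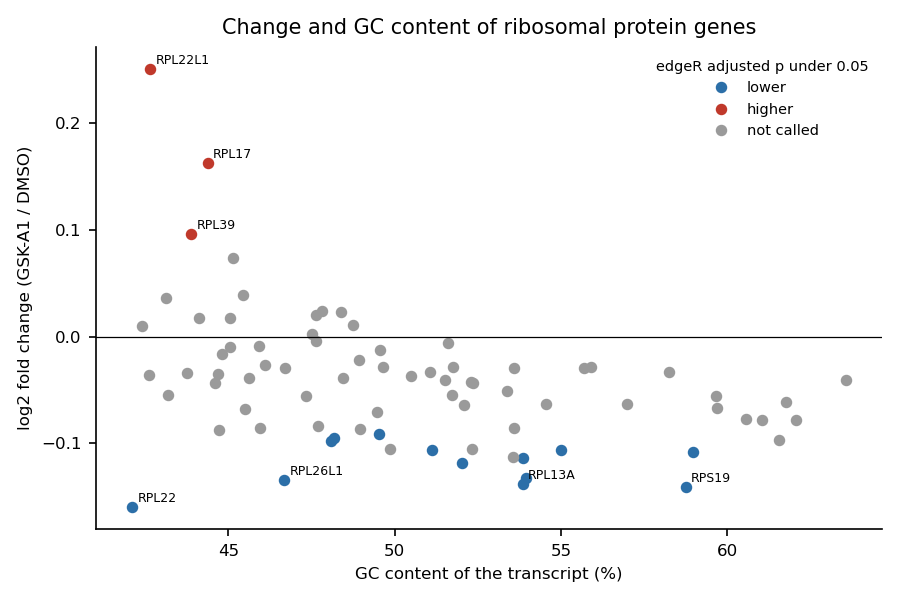
GC content of the transcript (x axis, percent) and log2 fold change of GSK-A1 over DMSO (y axis) for 78 of the 81 genes. Genes that rose (red) lie at the low-GC end and most that fell (blue) above 46% GC, with RPL22 at 42.1% the exception; Pearson's r over all 81 is -0.438.

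Short transcripts as a class also moved. When tested genes were put into 5 equal bins of transcript length, 69 of the 81 members fell in the shortest bin. The 3150 other genes of that bin had a median log2 fold change of -0.04, close to the -0.04 of the ribosomal protein genes. Of them, 9.97% were called lower against 18.5% of the members. Higher calls were few in both, 5.87% of them and 3.7% of the members, against 12.0% of all genes. The median rose with length, to 0.03 in the longest bin. With the length trend removed, only RPL13A, RPL22 and RPL27A fell while RPL17, RPL22L1 and RPL39 rose. That fit called 22.4% of all 16754 genes, 1710 lower and 2036 higher. The members' median was then -0.0065, with 43 of 81 below 0. The result for RPL27A rests on its chosen transcript, of 4916 bases for a coding length of 444, and its estimate moved to -0.115. RPL37, RPL37A and RPS23 also had long chosen transcripts, of 7686, 3647 and 3437 bases. Whether HEK293 cells make these transcripts was not tested. Removal of GC and length trends together, tried after the data were seen, gave 8 lower and 3 higher members, with 26% of all genes called. What part length, GC content or GSK-A1 replicate 2 had in the fall of the group was not tested.

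**Figure D5:**
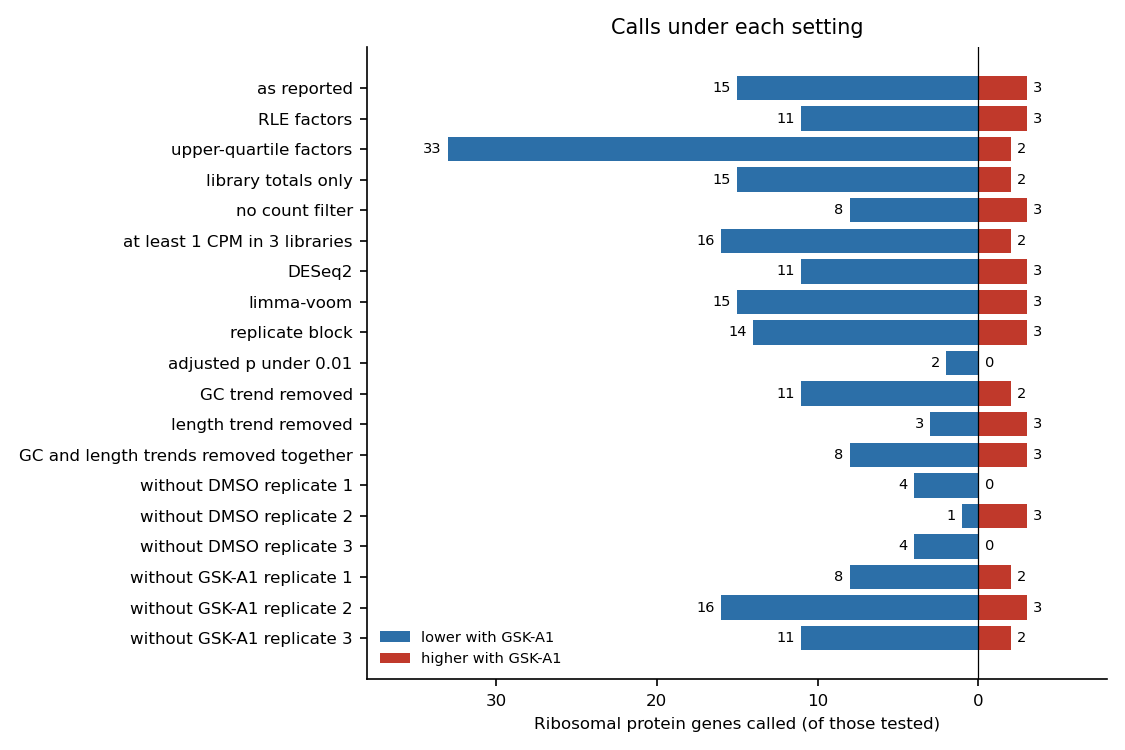
Ribosomal protein genes called lower (blue, left of 0) and higher (red, right of 0) out of 81 under the reported setting and 18 alternatives. Lower calls range from 1, without DMSO replicate 2, to 33 with upper-quartile factors, and exceed higher calls except without DMSO replicate 2 and with the length trend removed.

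Calls were also made among members with little shared sequence. In the 19 members with under 10% of their 50-base stretches in other genes, 5 fell, among them RPL11, RPL27A, RPS14 and RPS19, and RPL22L1 rose, with a median log2 fold change of -0.07. In the other 62, 10 fell and 2 rose, with a median of -0.04. Of all genes tested, 22.9% were called, 10.9% lower and 12.0% higher. The 19 genes took 1.88% ± 0.0332 of the counts with DMSO against 1.77% ± 0.0336 with GSK-A1 (SD, n = 3; two-sided exact permutation p = 0.1), a change of -5.95%.

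Members that changed were found with and without a TOP tract at the listed start. A pyrimidine run that begins after the listed start, as in RPL10A, counted as no tract. Of the 47 with a tract at the listed start, 9 fell and 2 rose, with a median log2 fold change of -0.05 (19.15% lower and 4.26% higher). Of the 18 without one, 3 fell and 1 rose, with a median of -0.04 (16.7% lower and 5.56% higher). Among other tested genes of the table, 12.3% were called lower and 12.5% higher with a tract, and 11.45% lower and 13.85% higher without one. Of the 16 not in the table, 3 fell and none rose at the edgeR threshold. Tracts were present in genes that fell (RPL13A, RPS19), that rose (RPL39, with the longest tract of 19 bases) and that were not called (RPLP0, RPLP1 and RPLP2).

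Ribosomal proteins whose symbols or fusions kept them out of the set gave 1 call among 4 (22.9% of all genes were called). RPS27L, a paralog of RPS27, was at 37.7, 38.3 and 36.8 CPM with DMSO and at 32.2, 30.0 and 33.7 CPM with GSK-A1. With no overlap between the groups, it fell by 0.24 ± 0.05 on the log2 scale (SE; edgeR adjusted p = 0.00369). RPS27 was not called (0.01, edgeR adjusted p = 0.841). FAU (-0.10), which encodes a ribosomal protein fused to a ubiquitin-like protein, and RPL36AL (0.11) were not called.

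Proteins of the mitochondrial ribosome are made from a separate set of nuclear genes. Of 77 tested, 8 fell and none rose (10.4%), with a median log2 fold change of -0.03. At an unadjusted p under 0.05 edgeR gave 21 of the 77 and 6000 of all 16754 genes. Of all genes, 10.9% fell and 12.0% rose, so the share that fell was close to that of all genes. MRPL40 fell from 35.5 ± 0.183 to 29.9 ± 2.04 CPM (SD, n = 3; -0.24 ± 0.05, edgeR adjusted p = 0.00387). MRPS25 and MRPL23 fell by 0.26 and 0.22 on the log2 scale. Their estimates lay beyond that of RPL22, a difference that was not tested. Without GSK-A1 replicate 2, 17 of the 77 were called, where 28.1% of all genes were. At their RefSeq starts, 5 of 68 had a TOP tract (7.35%).

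Other TOP mRNAs, among them those of translation factors, moved in both directions, with 3 higher and 2 lower of 26 and a median of 0.02. The share called was 19.2%, against 22.9% of all genes. The 3 called higher were CCT4, VIM and IPO7, which are not translation factors. CCT4, a subunit of the TRiC chaperonin, rose from 579 ± 1.49 to 660 ± 31.1 CPM (SD, n = 3; 0.19 ± 0.04, edgeR adjusted p = 0.00149). VIM, the intermediate filament vimentin, and IPO7, an importin of ribosomal proteins, rose by 0.17 and 0.16 on the log2 scale. The elongation factor genes EEF1A1 (-0.04, not called) and EEF1B2 (-0.10, edgeR adjusted p = 0.0245), picked after their values were seen, lay below 0. Of the 26 genes, 12 lay below 0 and 14 above. A TOP tract was at the listed start of 16 of the 18 in the table.

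Ribosome biogenesis factors process rRNA and assemble the subunits. Of 104 identifiers, 16 rose and 7 fell (22.1% called; 22.9% of all genes), with a median of 0.02. RRP12, which acts in pre-40S export, rose from 82.4 ± 3.29 to 99.2 ± 3.53 CPM (SD, n = 3; 0.27 ± 0.04, edgeR adjusted p = 0.000408). GNL3, nucleostemin, rose by 0.19 and SBDS, which helps free the 60S subunit for joining, by 0.28. Among 13 ribosomal protein chaperones and importers, 3 rose and 1 fell (30.8% called; 22.9% of all genes). TNPO1, an importin, rose by 0.23 on the log2 scale, and GRWD1, a chaperone of RPL3, fell by 0.18. IPO7 stood in both this list and that of the TOP mRNAs.

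Of 25 regulators of TOP mRNAs and of ribosomal protein transcription, 6 rose and 6 fell (48% called; 22.9% of all genes). MYC, a transcription factor that drives ribosome production, rose from 172 ± 1.91 to 208 ± 4.16 CPM (SD, n = 3; 0.28 ± 0.03, edgeR adjusted p = 4.92e-05). RPS6KA3, the kinase RSK2, rose by 0.24, and MLST8, a subunit of both mTOR complexes, fell by 0.22 on the log2 scale. MTOR itself fell from 152 to 137 CPM (-0.15 ± 0.04, edgeR adjusted p = 0.00955).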

How the data were processed

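RNA sequencing libraries of HEK293 cells with DMSO (n = 3) or GSK-A1 (n = 3) were compared. Total RNA was made into libraries with a stranded kit, per the labels' protocols. The authors deposited raw counts per gene, as whole numbers. Per the submitters' processing notes, the tools named were cutadapt 5.1, STAR 2.7.11b, featureCounts, Subread 2.1.1 and DESeq2 1.38.0 on GRCh38.p13. The annotation release, the strand setting and the treatment of reads with several matches are not given in the sources used here. How such reads were treated bears on this family, since many members resemble pseudogenes.

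Counts were tested with edgeR 4.0.16 in R 4.3.3: filterByExpr (smallest count 10, smallest total 15), TMM factors, robust quasi-likelihood F tests, and Benjamini-Hochberg adjustment over 16754 genes. Standard errors were derived from the log2 coefficient and its F statistic. Shares of counts were compared by exact two-sided permutation tests. Errors given are those of replicates, and counting error is not given separately. An SD of 3 values can fall below counting error, as with 1.49 CPM for CCT4 and 0.183 CPM for MRPL40 with DMSO. Such small SDs are no measure of precision. GC content, length and shared 50-base stretches came from GENCODE 29 transcripts, 1 per gene, and were known for all 81 members. Its build can differ in patch level from that of the counts. Start sites came from the RefSeq promoter table of GRCh38.p14, matched by symbol, with the longest tract taken where a gene had several starts.

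Alternatives were RLE and upper-quartile factors, library totals only, other count filters, DESeq2 1.42.0, limma-voom (limma 3.58.1), a replicate block, a threshold of 0.01, loess trends (span 0.3) on GC content and length, other denominators of the share, and fits without 1 library each. The edgeR code was tested on simulated counts. Members and lists were chosen with earlier results of these data known. Values in every library are given for up to 10 called members in each direction with the smallest p, the 5 members highest in CPM, the paralogs and the stalk genes. Of each other list, up to 3 called genes with the smallest p are named, with means or log2 fold changes. RPS6, RPS15A, RPS26, RPL5, RPL10A, RPL11, RPL13, RPL36, RPS16, RPSA, EEF1A1, EEF1B2, MTOR and the partners of paralogs were named after their values were seen. Some genes are not reported here by name and are left out of the plots that name genes, but they stay in all fits, counts and shares.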

Additional observations from a re-analysis of the deposited data

How the results depend on the processing

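Of 15 falls among ribosomal protein genes, the fits on upper-quartile factors, library totals only, at least 1 CPM in 3 libraries and limma-voom shared 15, and the replicate block 14. RLE factors and DESeq2, with 14 member calls each (11 lower), shared 11, the GC trend removed 9, no count filter 8, both trends removed 7, the length trend removed 3 and the threshold of 0.01 shared 2. Leaving out GSK-A1 replicates 1 to 3 shared 8, 13 and 9, and leaving out DMSO replicates 1 to 3 shared 4, 1 and 4. Upper-quartile factors gave 35 member calls (33 lower), 18 mitochondrial ribosomal and 9 other TOP calls, and moved the share of higher calls among all genes from 52.3% to 33.3%. No count filter gave 11 member calls (8 lower). DESeq2 gave 5 mitochondrial ribosomal calls. Removal of the length trend gave 6 member calls (3 lower) and 3 other TOP calls. GC and length trends removed together, added after the data were seen, gave 11 member calls (8 lower). An adjusted p under 0.01 left 1871 genes, 2 members (2 lower, 0 higher), 2 mitochondrial, 3 other TOP and 13 biogenesis calls. Members with under 10% shared stretches, being fewer, gave 6 calls. Fits without 1 library gave 2163 to 4890 calls over all genes, 4 to 19 for members (1 to 16 lower, 0 to 3 higher), 1 to 17 for mitochondrial ribosomal, 3 to 8 for other TOP and 12 to 33 for biogenesis genes. The difference in small-subunit share ranged from -0.192 to 0.00407 percentage points, and that of the ribosomal protein share from -0.446 to -0.321. Where fewer samples or genes do not account for these shifts, the cause was not tested.

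Among the named genes, 13 signs turned, all of genes that were not called. RPS4X was at 0.00224 with RLE factors, 0.00457 without a filter, 0.00223 with DESeq2, 0.0235 without the length trend, and between -0.0092 and 0.0087 when 1 library was left out. RPL39L was at 0.00386 without the length trend, 0.00264 without both trends, and between -0.0793 and 0.0279 when 1 library was left out. RPLP2 was at 0.051, 0.0119 and 0.0704 without the GC trend, the length trend and both, and between -0.109 and 0.0159 when 1 library was left out. The other named results kept their direction, 560 with the same call, 90 that lost it and 3 that gained one.

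Replicate numbers were not shown to pair the samples: deviations of same-numbered libraries correlated at 0.012, 0.035 and 0.042, although each GSK-A1 library matched best the DMSO library of its number. The replicate block gave 4127 calls over all genes, 17 members (14 lower) and 8 other TOP calls. Depth limits RPL39L and RPS10, at 128 to 270 counts per library.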

Other observations

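Of 1353 annotated ribosomal protein pseudogenes, 105 passed the count minimum, most at low counts. With edgeR, 5 were called higher and none lower (4.76%), where 22.9% of all genes were called. At an unadjusted p under 0.05 edgeR gave 14 of the 105 and 6000 of all 16754 genes. The median log2 fold change of the pseudogenes was 0.24 where that of the ribosomal protein genes was -0.04. Their summed share of counts overlapped between groups, with 0.0868%, 0.0881% and 0.0889% in DMSO replicates 1 to 3 and 0.0860%, 0.0910% and 0.0856% in GSK-A1 replicates 1 to 3 (exact two-sided permutation p = 0.9, n = 3). The median over pseudogenes and their summed share thus differ in sign. Pseudogene counts depend on how reads with several matches were assigned, which is not given in the sources used here.

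RPS27L counts were 5.60%, 5.48% and 5.50% of RPS27 counts in DMSO replicates 1 to 3 and 4.76%, 4.27% and 4.95% in GSK-A1 replicates 1 to 3 (exact two-sided permutation p = 0.1, the smallest possible). This ratio was lower in every GSK-A1 library, whereas RPL22L1 relative to RPL22 was higher in every GSK-A1 library.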
